A study of Mus musculus with 2 samples.

Results

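The 10 genes described here were measured in regulatory T (Treg) cells: Cbl, Cblb, Itch, Nedd4, Nedd4l, Ndfip1, Ndfip2, Rnf128, Dtx1 and Peli1. They encode ubiquitin ligases of the Cbl, NEDD4, RNF128, Deltex and Pellino families and the NEDD4 family adaptors, and most are known for restraint of T cell activation. Members were found by gene name among the probes that are not controls, which gave 13 probes of 55676 and 10 of 34960 gene names. All 10 members were well above background on both arrays, against 23494 of the 34960 names. Treg cells hold back immune responses and depend on the factor Foxp3. They had been sorted from Nr4a-TKO mice and from wild-type mice, all 5 weeks old, and lysed directly after the sort. Total RNA was hybridised to 1-colour Agilent arrays, 1 array per genotype. The labels give neither the altered part of each Nr4a gene, nor the sex or number of the mice, nor the sorting markers.

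Ubiquitin ligases attach ubiquitin to other proteins, which marks them for degradation, sorting or altered signalling. In T cells the Cbl proteins and Itch act on molecules downstream of the antigen receptor and CD28, and the Ndfip adaptors bring NEDD4 family ligases to their targets and switch them on. Mice that lack Itch or Ndfip1 are known for inflammation driven by Th2 cells, and loss of Cblb lets T cells respond with less co-stimulation. Rnf128 (GRAIL) and Dtx1 are known as genes of anergy, a state in which T cells no longer respond to antigen.

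The arrays read each transcript with probes of 60 bases. The first 30 bases are shown for all probes of the 3 members with the largest differences at their brightest probe. Bases run 5′ to 3′, as the scanner files give them. They are in lower case because no base is singled out.
Cblb probe at chr16:52207889-52207948 (mm9, + strand): atattttaaatattgatgcaggtactttct
Cblb probe at chr16:52205507-52205566 (mm9, + strand): gcttctcttgttagtttaagttctgtgacc
Nedd4 probe at chr9:72597306-72597365 (mm9, + strand): tgtggagtcacattcacgaaacacgaagac
Ndfip2 probe at chr14:105708027-105708086 (mm9, + strand): caatcatttttctttaaatgtttaatttgt
The pair of Cblb probes starts at base 6051 and base 3669 of one transcript, 2382 bases apart. The Nedd4 probe starts at base 5144 of its transcript and the Ndfip2 probe at base 1943. Whether these bases are coding or untranslated is not annotated in the files. Over all 78 pairs of member probes, the longest stretch shared by a pair, on either strand, was 9 bases. The Ndfip2 probe had the lowest GC content of the 13, at 20.0%, and the highest was 53.3%.

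The genes named by the genotype did not all follow the label. Nr4a3 was 7.04-fold lower in Nr4a-TKO (3.26-fold with normexp background correction, an alternative to the scanner's processed signal). Nr4a2 was 2.54-fold and 2.05-fold higher at its 2 probes, and Nr4a1 differed by 0.06 on the log2 scale. Since the altered parts are not given, these probes may lie outside them and then check nothing, and below "Nr4a-TKO" means the array with that label. All 9 Treg and T cell markers were well above background on both arrays, and all 9 were lower in Nr4a-TKO, Cd4 and the Cd3 genes included. Their median log2 difference was -0.52, against 0.08 over all genes. Of the 9, 3 were at least 2-fold lower, against 3.06% of all genes: Foxp3 by 17.2-fold (10.3-fold with normexp), Ikzf2 by 3.07-fold and Ctla4 by 2.29-fold. The signals of the 9 markers, in units of the array's 75th percentile, summed to 478 in Nr4a-TKO and 675 in wild-type. In these bulk samples, fewer cells of a type and less RNA per cell cannot be told apart. Of 7 B cell markers, 4 were well above background in Nr4a-TKO and 5 in wild-type, with sums of 1.46 in Nr4a-TKO and 0.901 in wild-type. Of 6 CD8 and NK cell markers, 3 were above it in Nr4a-TKO and 4 in wild-type, with sums of 0.876 in Nr4a-TKO and 1.51 in wild-type. The B cell sum in Nr4a-TKO came mostly from a single gene, as did both CD8 and NK cell sums. Of 10 myeloid markers, 7 were above it in Nr4a-TKO and 9 in wild-type, with sums of 14.6 in Nr4a-TKO and 15.3 in wild-type. Itgam made up most of both sums, Mpo was 7.76-fold lower in Nr4a-TKO (3.04-fold with normexp), and S100a8 and Lyz2 were well above background in wild-type only. Ms4a1, Klrb1c, Klrk1 and Itgax were below that limit on both arrays. The part of these markers in the members' values was not tested.

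Cblb was lower in Nr4a-TKO and Nedd4 was higher, each by over 2-fold in the 75th percentile scaling, and Ndfip2 came close to 2-fold lower. The other 7 members differed by less than 1.5-fold at their brightest probe, and a dim second probe of Nedd4l differed by more. There were no replicates, so each difference is between 2 arrays, and no p-value, standard error or interval over mice can be given. Technical error was described by the scanner's own error estimate for each spot, combined over both arrays, which rests on a preset proportional error of 10% and so is partly assumed, and by the spread between spots of 1 probe, which gave an SD of 0.080 for a log2 difference. All log2 differences are Nr4a-TKO minus wild-type after each array was scaled to its 75th percentile. Of the 10 members 1 was at least 2-fold higher, against 3.15% of all 23494 genes measured on both arrays, and 1 was at least 2-fold lower, against 3.06%. A single gene in each direction is too few to set the members apart from all genes. The median difference was -0.16 over the members and 0.08 over all genes, whose SD was 0.56. Above 0 lay 4 of the 10 members, against 59.6% of all genes, and below 0 lay 6, against 40.4%. Of those above 0, Ndfip1 turned sign in 3 of 11 alternatives and Peli1 in 7, so this split depends on the setting. Some of the 11, such as the changed filters on dim probes, left both values as they were and could not turn a sign.

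**Figure D1:**
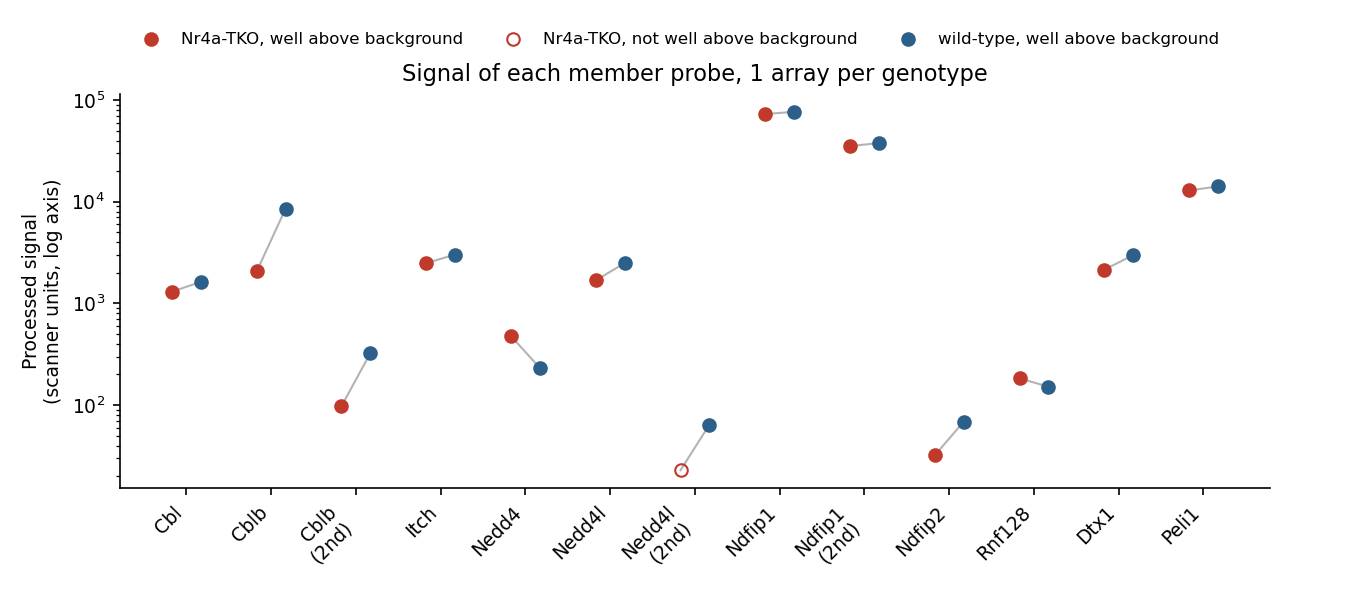
Processed signal (log axis, scanner units, before scaling between arrays) of each member probe, with Nr4a-TKO at the left and wild-type at the right of each pair and 1 array each. Both Cblb probes lay lower in Nr4a-TKO and the Nedd4 probe lay higher, and the open circle marks a Nedd4l probe not well above background; heights of different probes are not comparable.

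Both members of the Cbl family, RING ligases that act on receptor and kinase complexes, were measured, and Cblb had the larger difference. Cblb, whose product holds back T cells that receive antigen without CD28 co-stimulation, had a processed signal of 2068 in Nr4a-TKO and 8533 in wild-type at its brighter probe. The dimmer probe gave 97.7 in Nr4a-TKO and 323 in wild-type. Both probes were thus lower in Nr4a-TKO. After scaling, the brighter one was lower by 3.74-fold (log2 difference -1.90, scanner error 0.20), and the dimmer one had a log2 difference of -1.58 (scanner error 0.23). The gap of 0.32 between them exceeds the spread between spots and is larger than the scanner error of either probe. With normexp background correction, the dimmer probe was lower by 1.92-fold and the brighter by 3.71-fold. Among all genes measured on both arrays, 0.707% were lower by at least as much as the brighter probe. Cbl, the relative that ubiquitinates antigen receptor chains and ZAP-70, had signals of 1303 in Nr4a-TKO and 1631 in wild-type. Its log2 difference of -0.18 was smaller than its scanner error of 0.20, at a probe on chr9:43958124-43958183 (mm9, - strand).

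Of the 3 HECT ligases of the NEDD4 family, Nedd4 was higher in Nr4a-TKO, Nedd4l was lower, and Itch differed by less than its scanner error. Nedd4 had a signal of 477 in Nr4a-TKO and 232 in wild-type, which made it 2.27-fold higher after scaling (log2 difference 1.18, scanner error 0.21). It was 2.05-fold higher with normexp and 1.94-fold higher with spike-ins as the centre, and a stricter filter on dim probes left it out. Nedd4 is an exception to the role the group is named for, since in mouse T cells its product is known to promote activation and to target Cbl-b for degradation. Among all genes, 2.26% were higher by at least as much. Itch, which targets the Th2 transcription factor JunB, had signals of 2493 in Nr4a-TKO and 3023 in wild-type. Its log2 difference was -0.13, with a scanner error of 0.20, at chr2:155052476-155052535 (mm9, + strand). The difference for Itch exceeded the SD of 0.080 between spots and was below 0 in all 12 settings with a value. Several of these settings, such as the mean over probes, cannot change the value of a gene with 1 probe.

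Nedd4l, best known for removal of the epithelial sodium channel from the cell surface, had 2 probes. The brighter, at chr18:65372799-65372858 (mm9), gave 1683 in Nr4a-TKO and 2491 in wild-type, a log2 difference of -0.42 (1.34-fold lower) with a scanner error of 0.20. The other, at chr18:65377413-65377472, was well above background in wild-type only, with 22.9 in Nr4a-TKO and 64.0 in wild-type. It was at least 2.07-fold lower by its bound, which takes as floor the dimmest Nr4a-TKO signal that the scanner called well above background. With normexp its difference was -0.36 (1.29-fold lower). Both probes were lower in Nr4a-TKO, by sizes that depended on the background step at the dim one.

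**Figure D2:**
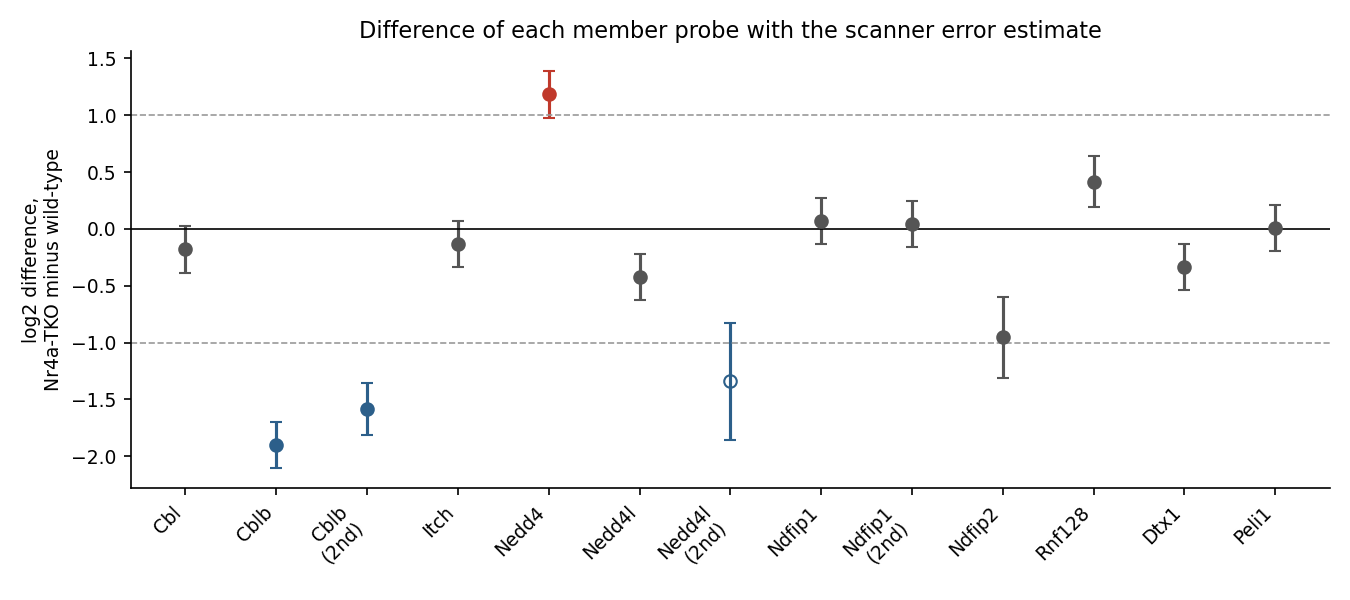
Log2 difference (Nr4a-TKO minus wild-type) of each member probe, with bars for the scanner error estimate combined over both arrays and dashed lines at 2-fold. Both Cblb probes lie below -1 and Nedd4 above 1, while Cbl, Itch, Ndfip1 and Peli1 lie within their bars of 0; the open circle is the Nedd4l probe not well above background in Nr4a-TKO.

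Of the adaptor genes, Ndfip2 was close to 2-fold lower in Nr4a-TKO, and Ndfip1 differed by less than its scanner error. Ndfip1, the main adaptor of Itch and Nedd4 in T cells, gave 72772 in Nr4a-TKO and 76661 in wild-type at 1 probe, and 35252 in Nr4a-TKO and 37779 in wild-type at the other. After scaling these were differences of 0.07 and 0.04, at chr18:38624758-38624817 and chr18:38624000-38624059 (mm9, both + strand), each under a scanner error of 0.20. The sign of the brighter one turned with quantile normalization, loess and spike-ins as the centre, so no direction is given for Ndfip1. Ndfip2, a related adaptor, was dim, with 32.1 in Nr4a-TKO and 68.6 in wild-type. It was 1.94-fold lower (log2 difference -0.95, scanner error 0.36), and 1.28-fold lower with normexp. Among all genes, 3.34% were lower by at least as much in the 75th percentile scaling. The larger scanner error of Ndfip2 goes with a signal near the background limit on the Nr4a-TKO array.

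Of the genes linked to anergy and to NF-kB control, none reached 1.5-fold. Rnf128, a membrane-bound RING ligase, gave 183 in Nr4a-TKO and 152 in wild-type. It was 1.34-fold higher (log2 difference 0.42, scanner error 0.22), and 1.24-fold higher with normexp, at chrX:136206790-136206849 (mm9, + strand). Since Rnf128 lies on the X chromosome, the signals of Xist, which coats and silences an X chromosome in females, are given beside it. Both Xist probes were well above background in Nr4a-TKO only, with log2 signals of 1.83 and 1.05 in Nr4a-TKO and -7.05 and -6.87 in wild-type. With 1 array per genotype, the Xist difference cannot be told apart from genotype for any member. Its part in the values of Rnf128 and of the other members was not tested. Dtx1, of the Deltex family that acts in Notch signalling, gave 2145 in Nr4a-TKO and 2989 in wild-type, a log2 difference of -0.34 (1.26-fold lower, scanner error 0.20) at chr5:121130278-121130337 (mm9, - strand). Peli1, which targets the NF-kB subunit c-Rel in T cells, gave 12905 in Nr4a-TKO and 14151 in wild-type. Its difference after scaling was 0.01 (scanner error 0.20), at chr11:21050222-21050281 (mm9, + strand), and its sign turned under 7 of 11 alternatives. The values of 4 members, Cbl, Itch, Ndfip1 and Peli1, thus lay within the scanner error of 0.

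**Figure D3:**
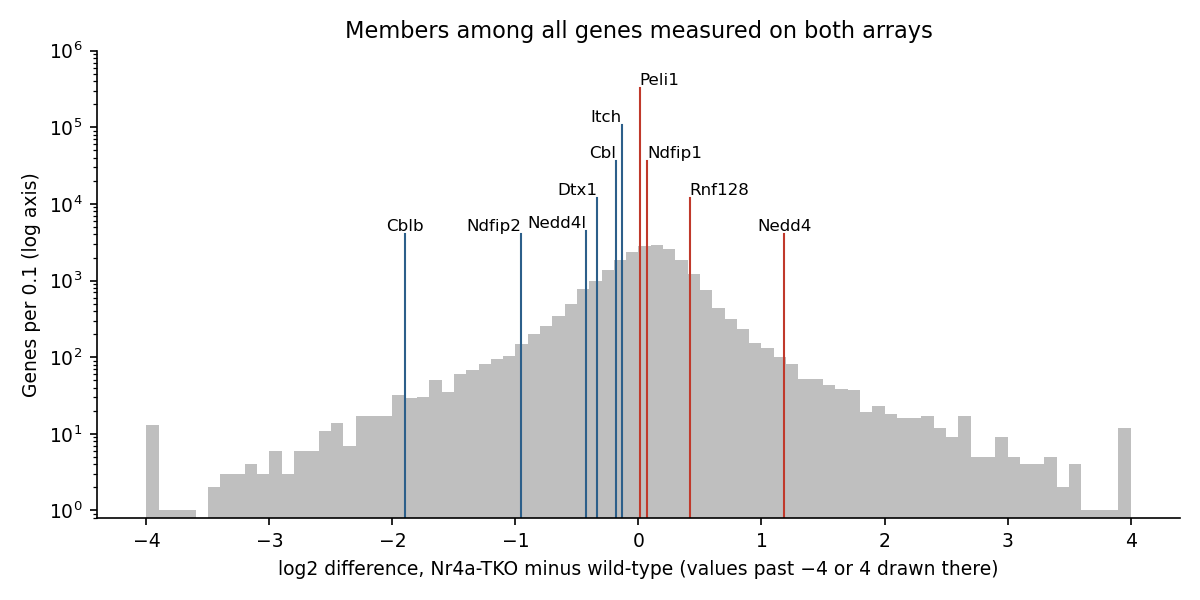
Histogram (log axis) of log2 differences, Nr4a-TKO minus wild-type, over the 23494 genes measured on both arrays, with the brighter probe of each member marked by a line. Cblb at -1.90 and Nedd4 at 1.18 lie in the tails, and Peli1, Ndfip1, Itch and Cbl lie under the central peak.

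The promoters of the 2 members past 2-fold are shown because these genes differed in opposite directions. They are the 250 bases before each start in RefSeq on GRCm38.p6, and capitals mark matches to the motifs searched. Motifs were searched on both strands of 300-base windows, from 250 bases before to 50 after a start: the NBRE that Nr4a proteins bind (AAAGGTCA), an AP-1 site (TGANTCA) and an Egr site (GCGNGGGCG).
Cblb promoter, chr16:52031299-52031548 (+ strand): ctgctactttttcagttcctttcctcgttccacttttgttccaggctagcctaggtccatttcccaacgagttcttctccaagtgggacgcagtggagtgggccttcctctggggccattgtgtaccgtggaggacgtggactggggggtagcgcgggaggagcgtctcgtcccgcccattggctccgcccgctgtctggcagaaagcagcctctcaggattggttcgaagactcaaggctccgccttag
Nedd4 promoter, first start, chr9:72662081-72662330 (+ strand): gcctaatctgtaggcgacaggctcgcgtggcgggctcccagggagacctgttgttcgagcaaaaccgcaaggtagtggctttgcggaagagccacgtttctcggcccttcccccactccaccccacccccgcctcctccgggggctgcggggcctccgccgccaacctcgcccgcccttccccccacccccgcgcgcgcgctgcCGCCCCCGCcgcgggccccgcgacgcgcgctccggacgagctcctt
Nedd4 promoter, second start, chr9:72693048-72693297 (+ strand): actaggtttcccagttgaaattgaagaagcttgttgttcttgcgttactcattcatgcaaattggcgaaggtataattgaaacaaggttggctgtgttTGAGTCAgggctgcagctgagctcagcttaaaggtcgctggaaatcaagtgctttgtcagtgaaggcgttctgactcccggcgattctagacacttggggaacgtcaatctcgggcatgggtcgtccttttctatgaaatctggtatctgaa
The table held 8 windows for 7 of the 10 members. The NBRE was in 0 of the 8, and in 1.51% of all 32851 windows. The Egr motif was in 2 of the 8, those of Cbl and of the first Nedd4 start, at 46 bases before that start, and in 5.55% of all windows. Apart from its free base this motif holds only G and C. The GC content was 74% in the Cbl window and 73% in that Nedd4 window, against a median of 52.7% over all windows. The part of GC content in these matches was not tested. The AP-1 motif was in 1 of the 8, at 152 bases before the second Nedd4 start, and in 7.81% of all windows. A match is a description of letters in a window and not a bound site, and the windows leave out any site farther away.

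No family relative of the members and no other T cell ligase that was well above background on both arrays was past 2-fold in the 75th percentile scaling. Lists of these genes were described by the same counts, with the shares of all genes given above as background. Among 17 measured relatives of the Cbl, NEDD4, Pellino, Deltex and RNF128 families, 0 were past 2-fold in either direction, with a median of -0.03. A further 3 were well above background in wild-type only, and without the filter on dim probes 2 of 21 relatives were at least 2-fold lower. The largest differences were those of Rnf149 (0.90) and Dtx4 (0.80), followed by Rnf130 (-0.52) and Rnf167 (-0.47), where Rnf149, Rnf130 and Rnf167 encode membrane-bound RING ligases like Rnf128. All 26 other ligases and ligase subunits known in T cells were measured, 0 were past 2-fold, and the median was 0.06. Siah2 was at 0.88 and Birc3 (cIAP2) at 0.41. Rc3h2 was at -0.59 and Rc3h1 at -0.44, the Roquin genes that restrain follicular helper T cells.

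Of 16 measured E2 enzymes and adaptors, the Ndfip genes included, 1 was at least 2-fold lower and 0 higher, with a median of -0.0016. With spike-ins as the centre 4 were lower, and with normexp 0. The lower one was Ube2d1, an E2 enzyme that hands ubiquitin to RING ligases, at 2.12-fold, or 1.68-fold with normexp. Ubash3a, a Cbl-binding suppressor of receptor signalling, was at -0.92, and Sh3kbp1 (CIN85), which binds Cbl proteins, at -0.78. Among 14 measured deubiquitinases, enzymes that remove ubiquitin, 1 was at least 2-fold higher, Otub2 at 2.03-fold (1.77-fold with normexp), and 0 were lower, with a median of 0.01. Otud7b was at 0.24, Cyld at -0.23 and Usp9x at 0.22, of which Cyld and Usp9x turned sign in 1 setting each.

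**Figure D4:**
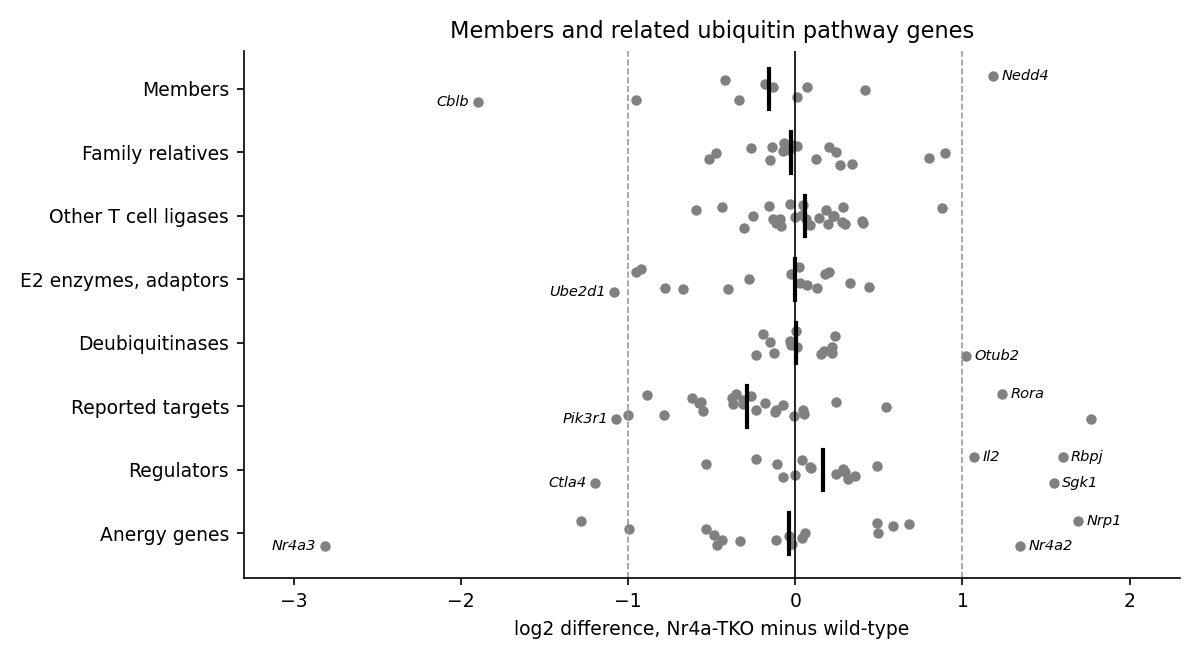
Log2 difference, Nr4a-TKO minus wild-type, of each gene measured on both arrays (points, spread vertically for view), by list, with a black bar at each median and dashed lines at 2-fold. The relatives and the other T cell ligases lie inside the dashed lines, and genes outside them that the text describes are named.

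Reported targets and regulators of the ligases, and anergy genes, lay past 2-fold in both directions. Past 2-fold lay 3 of 26 measured targets, 2 of them higher, and the median was -0.29. With spike-ins as the centre 2 targets were higher and 4 lower, with a median of -0.52, and with normexp 2 were higher and 0 lower. Rora, a nuclear receptor gene, was 2.36-fold higher. Pik3r1, the PI3K subunit that Cbl-b binds, was 2.10-fold lower (1.91-fold with normexp), and Rel, whose product c-Rel Peli1 acts on, had log2 signals of -3.62 in Nr4a-TKO and -2.63 in wild-type (log2 difference -0.55 with normexp). Past 2-fold lay 4 of 18 measured regulators, 3 of them higher, and the median was 0.17, which was -0.06 with spike-ins as the centre. Rbpj, the DNA-binding partner of Notch, was 3.03-fold higher, and Sgk1, a kinase that phosphorylates Nedd4l and limits its binding to targets, was 2.92-fold higher. Il2, the cytokine gene, was 2.10-fold higher and past 2-fold in 8 settings, and Ctla4, the inhibitory receptor, was 2.29-fold lower. Past 2-fold lay 4 of 19 measured anergy genes, 2 each way, and the median was -0.04. Among them were Nrp1 (3.23-fold higher), Nr4a2 (2.54-fold higher) and Nr4a3 (7.04-fold lower, 3.26-fold with normexp).

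**Figure D5:**
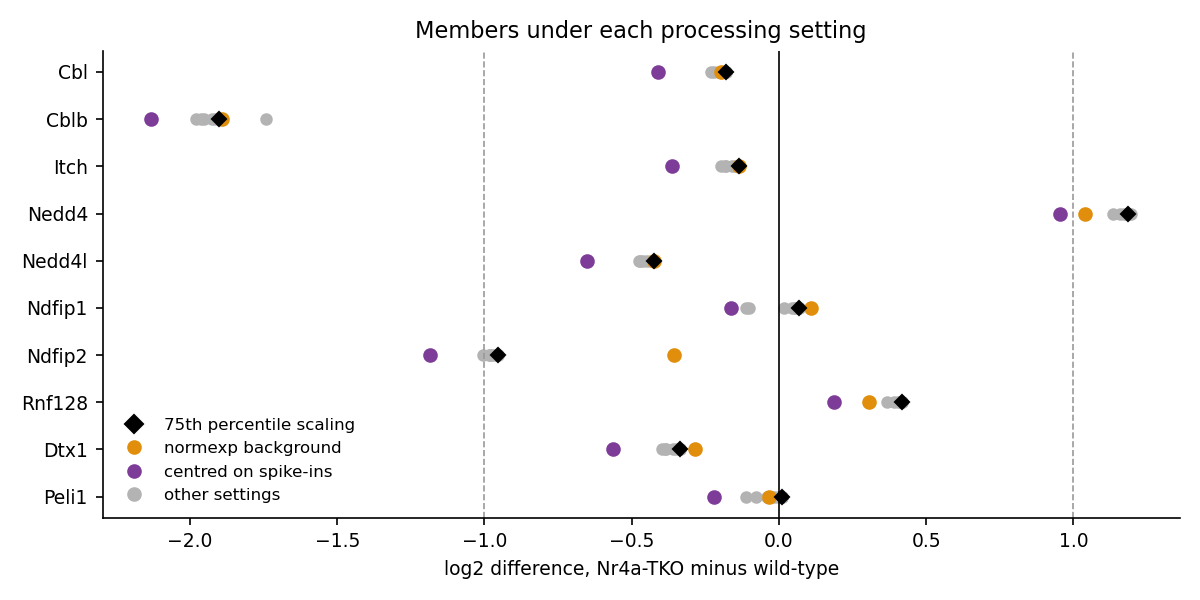
Log2 difference, Nr4a-TKO minus wild-type, of each member under every processing setting run, with the 75th percentile scaling as a diamond and dashed lines at 2-fold. Cblb stays between -2.13 and -1.74, Nedd4 lies between 0.95 and 1.20, and Ndfip2 spans -1.18 to -0.36.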

How the data were processed

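Total RNA of Treg cells was measured on 2 arrays of 1 slide with 1 scan time, 1 per genotype, each sample taking its group from the labelled genotype. Scanner intensity was extracted by the authors with Feature Extraction 10.10.1.1, with spatial and multiplicative detrending and surrogates switched on and probe positions on mm9, per the file headers. The deposited log2 table held the same signals less 1 constant per array, with medians of -3.53 in Nr4a-TKO and -3.54 in wild-type. No source used here gives the rule for the constant, which was 9.546 in Nr4a-TKO and 9.688 in wild-type. The 75th percentiles used here were close to it, at 9.555 in Nr4a-TKO and 9.699 in wild-type. The table served as an alternative, but it nearly repeats the 75th percentile scaling and is not a separate check.

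Spots numbered 62976 per array, 3671 of them controls. Controls and outlier spots (117 in Nr4a-TKO and 156 in wild-type) were left out, and 0 spots were saturated. Log2 signals were averaged per probe, and the 75th percentile over 55676 probes was subtracted on each array. Of these probes 63.9% in Nr4a-TKO and 66.0% in wild-type were well above background in the scanner's call. The number of arrays limits the precision. Names came through RefSeq accessions (assembly GRCm38.p6) for 27508 probes, and 28168 kept the file's name. A gene was read from its probe with the highest mean signal and counted if both arrays had it well above background. The scanner error is the deposited error of each processed signal, put on the log2 scale and added in quadrature over both arrays.

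All member probes were reported, with up to 4 leading genes of each other list, the Nr4a genes and Xist. Treg markers past 2-fold, Cd4, the Cd3 genes and marker genes below background were named too. Some genes that this rule names are not reported here. Members and lists were chosen with earlier results of these data known. With 1 array per genotype no test was run. The gene counting was tested on simulated data. Alternatives were normexp background correction (offset 50), the array median, the same percentile over detected probes only, quantile normalization, spike-ins or housekeeping genes as the centre, loess (span 0.3), the deposited table, the mean over probes, fold thresholds of 1.5 and 3, and either no filter or a stricter one on dim probes. Python 3.11.15, numpy 2.4.6, pandas 2.3.3, matplotlib 3.10.9, R 4.3.3 and limma 3.58.1 were used.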

Additional observations from a re-analysis of the deposited data

How the results depend on the processing

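Cblb was at least 2-fold lower and below all other members in every setting that was run, between -2.13 and -1.74 on the log2 scale. The count of members at least 2-fold lower was 2 in place of 1 at 1.5-fold, with spike-ins as the centre and with the percentile taken over detected probes, where Ndfip2 joined Cblb. The count at least 2-fold higher was 0 in place of 1 with spike-ins (Nedd4 at 0.95), at 3-fold, and with the stricter filter, which kept 7 members and by construction left Nedd4 out. The median of the members was -0.39 with spike-ins as the centre and stayed below 0 in each setting. Spike-ins differed by 0.23 after scaling, and centring on them moved the median of all genes to -0.15 and gave 482 genes at least 2-fold higher and 1143 lower (29.7% higher, against 50.7% of 741 higher and 720 lower). These counts were 478 and 457 with normexp, 1965 and 1728 at 1.5-fold, 288 and 283 at 3-fold, 1988 and 1834 without the filter, and 293 and 309 with a stricter one. The related lists were recomputed under the same settings after seeing the data. With spike-ins, the medians of the regulators, the other T cell ligases and the deubiquitinases turned from above to below 0. That of the regulators was -0.063, against 0.17, which is smaller in size than the SD of 0.080 between spots. Those of the other T cell ligases, at -0.17 against 0.06, and of the deubiquitinases, at -0.22 against 0.01, were larger in size than this SD. Signs of medians near 0 also turned elsewhere. The other T cell ligases were below 0 with quantile normalization (-0.054) and loess (-0.055). The deubiquitinases were below 0 in several more settings, such as the percentile over detected probes (-0.042). Above 0 lay the relatives with normexp (0.034) and the E2 enzymes and adaptors with the stricter filter (0.027). For dim probes such as Ndfip2 and the second Nedd4l probe, the signal over background limits the size of a difference. No paired analysis was possible because each genotype had 1 array.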
